A study of Mus musculus with 14 samples.

Results

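The genes described here are the neighbours of H2-K1 in the mouse histocompatibility complex that have no part in antigen presentation: Zbtb22, Daxx, Rgl2, Wdr46, Vps52, Ring1, Hsd17b8, Slc39a7 and Brd2. They were chosen by gene symbol and place, because H2-K1 had one of the lowest ratios of Ptdsr-/- over wild-type fibroblasts in the same arrays. Earlier results of these data were known when the genes were chosen. Of the 9 genes, 8 had a probe, out of 9930 named genes on the array, and they had 12 of its 20355 probes. Brd2 had no probe, and Hsd17b8 was found under its older platform symbol H2-Ke6. Of the 12 probes, 10 from 7 genes were measured often enough to be tested, which required 10 arrays with a value, 4 or more of them in either dye orientation. The Vps52 probe and 1 of the 2 Hsd17b8 probes had 9 values each and were not tested.

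The study set RNA of Ptdsr-/- mouse fibroblasts against RNA of wild-type mouse fibroblasts on 14 cDNA arrays with 2 colours, 7 with knockout RNA in Cy5 and 7 with knockout RNA in Cy3. Ptdsr (current symbol Jmjd6) is named for a phosphatidylserine receptor and encodes a nuclear protein with a JmjC domain. The design text names 2 cultures without tying an array to either, so the spread between arrays may be in part technical. The labels name neither the strain of the cells nor the deleted part of the gene, nor whether a culture was a clone.

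The histocompatibility complex is known for the class I and class II molecules that present peptides to T cells, and for the proteasome subunits and peptide transporters that supply them. Many of these genes are induced by interferon through promoter elements of their own. Genes with unrelated work lie between them, among them chromatin regulators, a zinc transporter and a ribosome assembly factor, and most of these are used by nearly every cell type. The comparison of interest is whether the low ratio of H2-K1 stood alone or ran along the chromosome.

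In the RefSeq gene order of GRCm38.p6, Daxx, Zbtb22, Rgl2, Wdr46 and Vps52 come before H2-K1 on chromosome 17, and Ring1, Hsd17b8, Slc39a7 and Brd2 come after it. Vps52 and Ring1 are its nearest protein-coding neighbours on either side. The antigen presentation gene Tapbp lies between Zbtb22 and Rgl2. No position is given for the probes themselves. By the same table the Zbtb22 gene overlaps 1 long non-coding gene, Gm19412, and whether the probes separate the strands is not stated.

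The promoters of Zbtb22 and H2-K1 are shown because the ratios of these 2 genes are set side by side below. Each line gives the 250 bases before the first listed start in RefSeq, build GRCm38.p6, at chr17:33915926-33916175 on the plus strand for Zbtb22 and at chr17:34000348-34000597 on the minus strand for H2-K1. Capitals mark the motifs GGGNNTTCC (a kB core, as in class I promoters) and GAANNGAAA (an interferon response core), both searched on both strands.
Zbtb22: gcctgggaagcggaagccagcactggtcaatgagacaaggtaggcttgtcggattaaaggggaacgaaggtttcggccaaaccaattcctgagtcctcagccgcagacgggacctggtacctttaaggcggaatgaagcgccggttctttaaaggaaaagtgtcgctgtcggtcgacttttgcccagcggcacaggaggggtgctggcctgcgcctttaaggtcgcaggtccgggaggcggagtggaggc
H2-K1: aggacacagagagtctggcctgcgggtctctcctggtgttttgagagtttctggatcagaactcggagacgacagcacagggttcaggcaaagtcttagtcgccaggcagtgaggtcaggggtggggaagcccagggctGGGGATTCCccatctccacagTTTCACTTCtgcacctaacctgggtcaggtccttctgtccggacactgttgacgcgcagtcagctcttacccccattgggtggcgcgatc
H2-K1 held both motifs, the first beginning 111 bases before the start and the second, on the opposite strand, 90 bases before it. Zbtb22 held neither. Of the 9 neighbours 0 held GAANNGAAA and 1, Wdr46, held GGGNNTTCC. Of 27025 promoters of this length, 6.34% held GAANNGAAA and 4.88% held GGGNNTTCC. The general elements GGGCGG and CCAAT were each found in 4 of the 9 neighbours, against 32.9% and 34.5% of all promoters. The motifs were picked with the H2-K1 promoter known, and a match describes letters, not binding.

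All values below are log2 ratios of Ptdsr-/- over wild type, with each array centred on its median, so that 0 is the middle probe of an array. No label states this direction, and it is only likely. Its basis is a repeated coded value, positive on all 7 Cy5 arrays and negative on all 7 Cy3 arrays (named by the dye of the knockout), as for ratios formed as Cy5 over Cy3 and turned before deposit. If the ratio had been formed the other way, every sign would turn. If the Cy3 arrays still needed turning, Zbtb22 p15389, the most uniformly low neighbour probe, would average 0.061 and H2-K1 0.18. The Jmjd6 probe with 14 values averaged -0.51 ± 1.14 (SD, n = 14) and was below 0 on 12 of 14 arrays. The other Jmjd6 probe, with too few values to be tested, averaged 0.27 ± 1.10 (SD, n = 5) and was below 0 on 1 of 5, and whether either lies in the deleted part is not known. Between 13165 and 19615 probes had a usable value on an array. Each value is a ratio, so no transcript level can be read from it, and fewer cells of a type cannot be told apart from less RNA per cell.

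By their 95% intervals, most of the tested neighbour probes did not share the low ratio of H2-K1. H2-K1, which encodes a classical class I heavy chain, averaged -1.50 ± 0.55 (SD, n = 14) and was below 0 on 14 of 14 arrays. Over the 10 tested neighbour probes the median of the means was 0.18, against 0.007 over all 18503 tested probes. Its sign is not settled, since it was -0.101 without replicate 11, -0.23 with coded extremes kept and -0.09 over the 3 probes with values on all arrays. Means of 4 probes lay below 0 and of 6 above, from -0.66 for Zbtb22 to 0.77 for Ring1. By limma 0 of the 10 were called (adjusted p under 0.05), where 0.0324% of all tested probes were, and at an unadjusted p under 0.05 the count was 1 lower and 0 higher (2.76% and 2.3% of all tested probes). H2-K1 was singled out in this same contrast, so nothing is read from these counts. The 95% interval of the fitted ratio held 0 for 9 of the 10 probes, and its lower end lay above the fitted H2-K1 ratio for all 10. For 8 of the 10 the interval was clear of that of H2-K1, and those of Rgl2 p18248 and Slc39a7 p6102 overlapped it. H2-K1 was chosen for its low ratio, so most probes could be expected to lie above it, here and below. The share of all probes that did was not counted, and nothing particular to the neighbours is read from these comparisons.

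**Figure D1:**
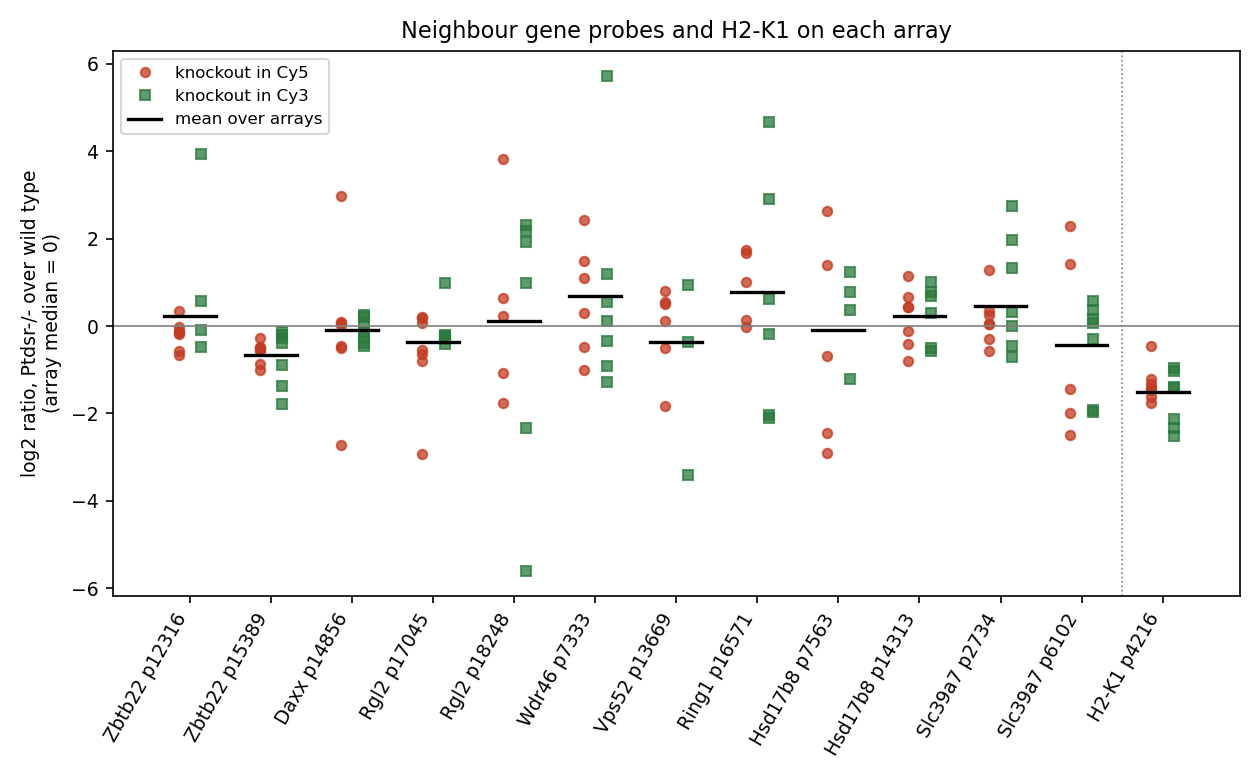
The log2 ratio of Ptdsr-/- over wild type (vertical axis, array median at 0) is plotted for each of the 12 neighbour probes and for H2-K1, 1 point per array, with circles for the knockout in Cy5, squares for the knockout in Cy3 and a bar at the mean. Zbtb22 p15389 and H2-K1 have all 14 points below 0, and the other 11 probes have points on both sides.

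Zbtb22 encodes a nuclear protein with a BTB domain and zinc fingers, a structure shared by many transcription regulators. Its probe p15389 ran from -1.80 to -0.13 over the 14 arrays, with a median of -0.52. All 14 values lay below 0, and it was the only neighbour probe of which this was true. Over all tested probes the share that lay below 0 on every array with a value was 0.141%. Among the 6134 probes with 14 values it was 0.261%. The neighbours, Zbtb22 among them, were chosen with earlier results of these data known. Nothing is therefore read from setting this probe against these shares. The mean was -0.66 ± 0.48 (SD, n = 14), a 1.59-fold lower ratio, with a 95% interval of the fit from -0.98 to -0.35. It lay above H2-K1 on 14 of 14 arrays, by 0.83 ± 0.33 (SD, n = 14). On the Cy5 arrays it averaged -0.60 ± 0.25 and on the Cy3 arrays -0.73 ± 0.65 (SD, n = 7 each), so the values of both orientations overlapped. The lowest values were those of replicates 12 and 11, at -1.80 and -1.37, and the highest was that of replicate 14, at -0.127.

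The second Zbtb22 probe did not repeat this. Probe p12316 had 11 values from -0.66 to 3.95, with a median of -0.11, and 8 of them lay below 0. Its mean was 0.24 ± 1.28 (SD, n = 11), and the value of replicate 11 alone set the sign. Without replicate 11 the mean was -0.14 ± 0.38 (SD, n = 10). On the 11 arrays that measured both, p15389 was the lower probe on 9, and their ratios correlated at -0.55 across arrays (Pearson; Spearman -0.46). Both probes are annotated to 1 RefSeq transcript, and which parts of it they cover is not given. Averaged per array, the 2 probes gave a Zbtb22 mean of -0.27 ± 0.48 (SD, n = 14), with 13 of 14 arrays below 0.

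**Figure D2:**
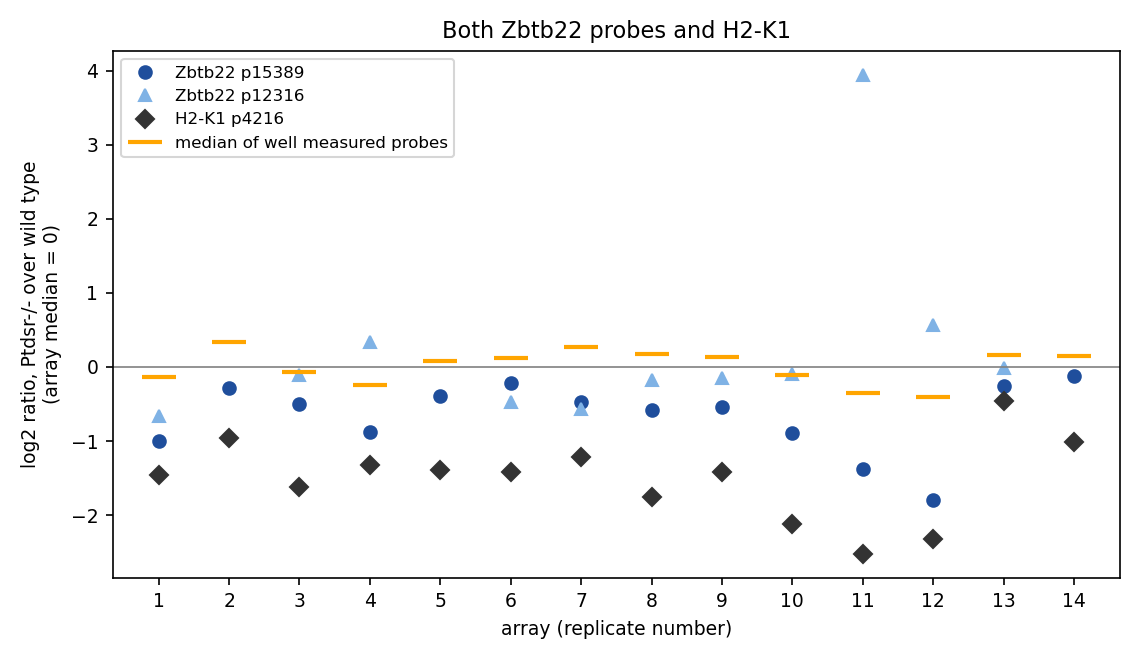
The log2 ratio of Ptdsr-/- over wild type (vertical axis) is plotted against the replicate number of the array for both Zbtb22 probes and H2-K1, with a dash at the median of the well measured probes of each array. Zbtb22 p15389 lies between H2-K1 and 0 on every array, while p12316 reaches 3.95 on replicate 11.

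The movement of Zbtb22 p15389 between arrays was shared with many probes of unrelated genes. Among 6133 other probes with 14 values, the 5 most like it by Pearson correlation over the 14 arrays were Sfpq (0.98), an unnamed probe p10199 (0.97), Tmem109 (0.97), an unnamed probe p2744 (0.96) and Aldoa (0.96). Sfpq is a splicing factor, Aldoa a glycolytic aldolase and Tmem109 a membrane protein, and all 3 averaged near or above 0, at 0.20, -0.009 and 0.016. Correlations above 0.9 were found for 79 of the 6133. H2-K1 stood at 0.80 (Spearman 0.80), rank 413, and at 0.60 without replicates 11 and 12, the 2 arrays farthest from the Zbtb22 median. Within the Cy5 arrays its correlation with Zbtb22 was 0.49 and within the Cy3 arrays 0.91. The 5 most like probes, picked for their correlation over the same arrays, stood between 0.87 (Aldoa) and 0.92 (Sfpq) without replicates 11 and 12. Within the Cy5 arrays they stood between 0.74 (Aldoa) and 0.94 (p10199), and within the Cy3 arrays between 0.98 (p10199) and 0.99 (Aldoa). The arrays come from 2 cultures, so these correlations describe likeness only, and of the neighbours with 14 values Daxx stood at -0.033 (Spearman -0.152) and Slc39a7 p2734 at 0.492 (Spearman 0.631), the second at 0.267 without replicates 11 and 12.

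**Figure D3:**
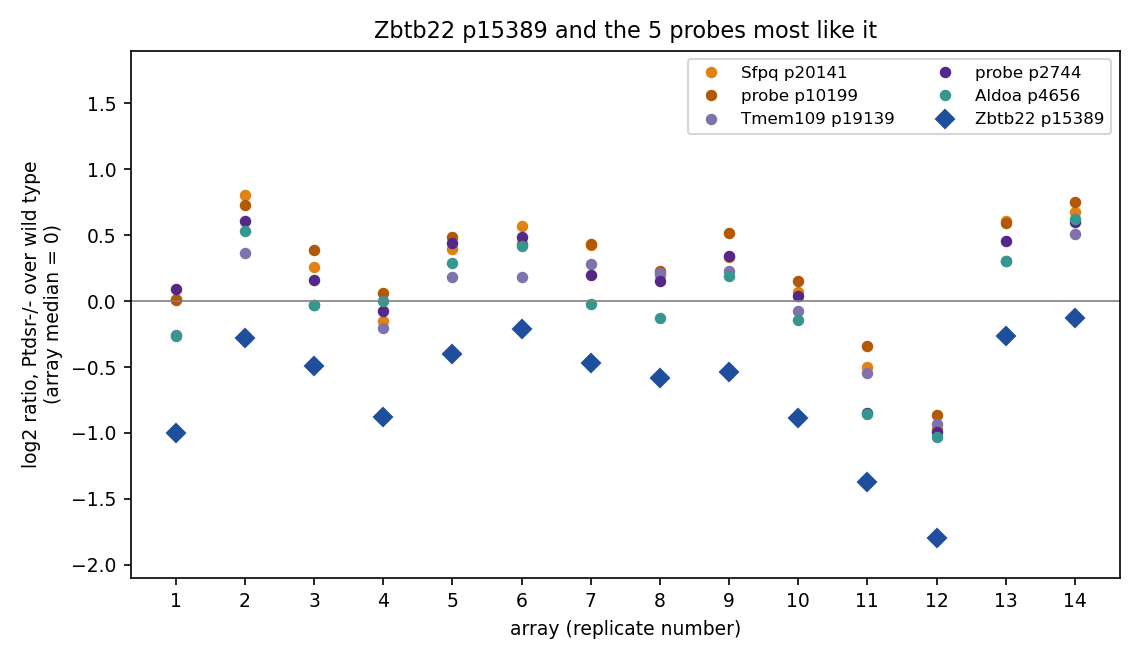
The log2 ratio of Ptdsr-/- over wild type (vertical axis) is plotted against replicate number for Zbtb22 p15389 and the 5 probes most like it over 14 arrays. All 6 probes are low on replicates 11 and 12, and Zbtb22 is the lowest of them on every array.

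This shared movement was also seen in the 1670 probes with 14 values of which none was a ratio of small whole numbers (up to 10, a stand-in for dim spots), called well measured here. Their median was -0.358 on replicate 11 and -0.412 on replicate 12, against 0.338 on replicate 2, the highest. Zbtb22 p15389 is not one of these probes, as 2 of its values, on replicates 11 and 13, were such ratios, while H2-K1 had 0. Taken relative to that median, Zbtb22 p15389 averaged -0.67 ± 0.29 (SD, n = 14), from -1.38 to -0.27, and H2-K1 -1.51 ± 0.41 (SD, n = 14). Both means barely moved while both spreads became smaller. With arrays centred this way, a setting chosen after the data were seen, limma called Zbtb22 p15389 and none of the other neighbour probes. In this setting 10 of 18503 tested probes were called. With arrays centred on all their probes, Zbtb22 p15389 was not called. In replicates 1 to 6 the probe averaged -0.54 ± 0.32 (SD, n = 6), in replicates 7 to 12 -0.94 ± 0.54 (SD, n = 6), and in replicates 13 and 14 -0.20 ± 0.096 (SD, n = 2), with each array centred on all its probes. These number ranges follow earlier results of these data and are no labelled batches.

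Daxx, which loads histone H3.3 onto chromatin together with Atrx and resides in PML bodies, had 14 values from -2.71 to 2.97 with a median of -0.06. Its mean was -0.09 ± 1.15 (SD, n = 14), with 7 arrays below 0 and 7 above. The spread came mostly from replicates 7 and 9, which held these extremes, both with the knockout in Cy5. With the knockout in Cy3 all 7 values lay within a narrow band, at a mean of -0.11 ± 0.28 (SD, n = 7).

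Ring1 is an E3 ubiquitin ligase of the Polycomb repressive complex that marks histone H2A. Its 11 values ran from -2.11 to 4.68 with a median of 0.63, and a coded extreme on replicate 2 was set to missing. The mean of 0.77 ± 1.99 (SD, n = 11) was the highest of the neighbours, but its 95% interval of -0.43 to 1.99 held 0. Without replicate 10 the mean was 0.378, no longer the highest, and with the coded extreme kept it was -0.694. Of all tested probes, 97.5% had a smaller spread between arrays, so the ratio of this gene, next to H2-K1 on the chromosome, is known only loosely. It lay above H2-K1, a gene chosen for its low ratio, on 10 of 11 arrays.

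Slc39a7 carries zinc out of the endoplasmic reticulum and had 2 probes that pointed opposite ways. Probe p2734 ran from -0.71 to 2.75 with a median of 0.14, at a mean of 0.45 ± 1.01 (SD, n = 14) and 10 of 14 arrays above 0. Probe p6102 ran from -2.49 to 2.30 with a median of -0.12, at a mean of -0.44 ± 1.52 (SD, n = 12) and 6 arrays on either side of 0. They took opposite signs on 8 of the 12 arrays that measured both. For p2734 the mean was 1.07 ± 1.29 in replicates 1 to 6 and -0.12 ± 0.39 in replicates 7 to 12 (SD, n = 6 each), so the 2 means lay on opposite sides of 0.

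Hsd17b8 encodes a ketoacyl and steroid dehydrogenase, in human a mitochondrial one. Its tested probe p14313 ran from -0.80 to 1.16 with a median of 0.44, at a mean of 0.24 ± 0.65 (SD, n = 13). Its 95% interval, from -0.17 to 0.66, was the narrowest of the neighbours after that of Zbtb22 p15389. It lay above H2-K1 on 13 of 13 arrays. The untested probe p7563 had 9 values from -2.91 to 2.64 at a mean of -0.09 ± 1.85 (SD, n = 9), and on these 9 arrays the 2 probes correlated at 0.86 (Pearson; Spearman 0.75), the highest agreement between 2 probes of 1 neighbour gene.

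Rgl2 activates the small GTPase Ral. Probe p17045 ran from -2.94 to 0.98 with a median of -0.25, at a mean of -0.37 ± 0.90 (SD, n = 13) and 9 of 13 arrays below 0. Probe p18248 ran from -5.61 to 3.82 with a median of 0.64, at a mean of 0.12 ± 2.66 (SD, n = 11), with a coded extreme on replicate 14 set to missing. The sign of this mean rests on single arrays, as it lay between -0.249 and 0.693 with 1 array left out and at -1.303 with the coded extreme kept. The second probe had the wider spread, above that of 99.9% of tested probes, and 6 of its 11 values were ratios of small whole numbers. The probes correlated at 0.023 (Pearson; Spearman 0.21) over 10 shared arrays.

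Wdr46 is a nucleolar protein needed to process ribosomal RNA. Its 13 values ran from -1.28 to 5.74 with a median of 0.29, at a mean of 0.68 ± 1.87 (SD, n = 13), and 6 of them were ratios of small whole numbers. Replicate 2 held the highest value, and without 1 array at a time the mean lay between 0.26 and 0.85. Vps52 is a subunit of the tethering complexes that return vesicles to the Golgi and to recycling endosomes, and it lies next to H2-K1. Its 9 values ran from -3.40 to 0.94 with a median of 0.11, at a mean of -0.35 ± 1.43 (SD, n = 9), and 5 of the 9 lay above 0. Neither gene was low on all of its arrays.

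The dye term, which asks whether a probe gave different ratios in the 2 dye orientations, was not used in choosing the genes. By limma 0 of the 10 neighbour probes had a dye term at an adjusted p under 0.05 (lowest adjusted p = 0.725, for Zbtb22 p12316), where 0.0054% of all tested probes did, and 0 of the 10 at an unadjusted p under 0.05, against 7.66% of all. The dye terms ran from -0.59 for Zbtb22 p12316 to 0.23 for Rgl2 p18248. For Zbtb22 p15389 the term was 0.061. A p that misses the threshold does not show equal ratios in both orientations.

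Along the chromosome, tested probes whose intervals held 0 lay between Zbtb22 and H2-K1, and the interval of Zbtb22 p12316 also held 0. Farther along, Tap1 and Psmb8 lie side by side and were both low. Psmb9, on the other side of Tap1, averaged 0.43 ± 1.97 (SD, n = 11), with an interval that held 0. Beside Zbtb22, the untested Tapbp probe, which stands for the chaperone that loads class I molecules, averaged 0.22 ± 1.55 (SD, n = 9). A list of further non-antigen genes had 10 tested genes with 10 probes. Not all of them lie beside H2-K1, as Cuta, Bak1, Ip6k3, Lemd2 and Zbtb9 fall outside the stretch from Rps28 to Btnl4 around it. The counts and median of this list therefore do not describe the surroundings of H2-K1 alone. By limma 0 were called in either direction (0.0324% of all tested probes). At an unadjusted p under 0.05 there were 0 lower and 0 higher (2.76% and 2.3% of all tested probes). Their median was 0.12, with 3 means below 0 and 7 above. The lowest were Pfdn6, a prefoldin subunit, at -0.94 ± 1.94 (SD, n = 10) and Cuta at -0.12 ± 0.34 (SD, n = 14). The highest were Zbtb9, another BTB zinc finger gene, at 0.72 ± 1.38 (SD, n = 11) and the nuclear envelope gene Lemd2 at 0.52 ± 1.30 (SD, n = 12).

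The antigen presentation genes of the same complex differed among themselves. Of 13 tested probes of 12 genes, 1 was called lower by limma, H2-K1 (0.0324% of all tested probes were called lower). At an unadjusted p under 0.05, 3 were lower, H2-K1 among them, and 0 higher (2.76% and 2.3% of all tested probes). H2-K1 was singled out in this same contrast, so nothing is read from its part in these counts. Tap1, a subunit of the peptide transporter, averaged -0.50 ± 0.35 (SD, n = 14), below 0 on 13 of 14 arrays. In the list 2 probes were below 0 on every array with a value, the first being H2-K1. The second of these was the immunoproteasome subunit Psmb8, at -0.73 ± 0.34 (SD, n = 14). The list's median was -0.005, with 7 means below 0 and 6 above, and its highest means were those of H2-M3 at 0.59 ± 2.18 (SD, n = 12) and Psmb9 at 0.43 ± 1.97 (SD, n = 11). Zbtb22 p15389 thus lay near Psmb8 in size, and no test of a difference between them was made. This list was known from earlier results of these data.

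**Figure D4:**
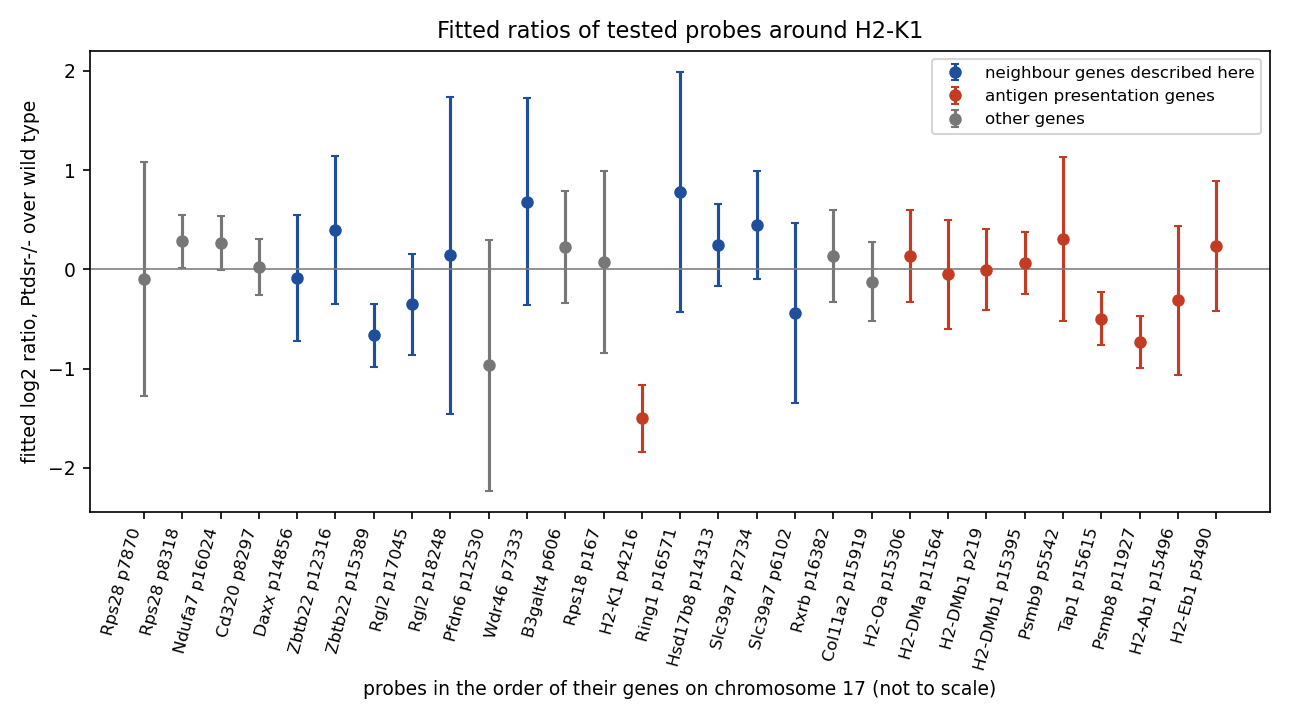
The fitted log2 ratio of Ptdsr-/- over wild type with its 95% interval (vertical axis) is plotted for each tested probe around H2-K1, in the order of the genes on chromosome 17 and not to scale, with the neighbours described here in blue, antigen presentation genes in red and other genes in grey. The intervals of Zbtb22 p15389, H2-K1, Tap1 and Psmb8 lie wholly below 0, and that of Rps28 p8318 lies wholly above it. The nearest tested probes to H2-K1, of Rps18 and Ring1, have intervals that hold 0, and Vps52 was not tested.

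Genes that work with the neighbours were also measured, from a list of Polycomb, Daxx, vesicle tethering, bromodomain and Ral partners. Of 19 genes with 31 tested probes, by limma 0 were called, where 0.0324% of all tested probes were. At an unadjusted p under 0.05 there was 1 higher probe and 0 lower (2.3% and 2.76% of all tested probes). Their median was 0.072, with means from -0.64 to 0.45. The lowest was a probe of Phc2, a Polycomb subunit, at -0.64 ± 1.65 (SD, n = 14), and the highest was Pcgf3, another one, at 0.45 ± 0.65 (SD, n = 10).

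Of the macrophage markers, both Lyz2 probes and the Cd68 probe had fitted intervals wholly below 0, and those of Tyrobp, Ptprc and Fcer1g held 0. All 6 tested probes of 5 such genes had means below 0, with a median of -0.58, from -1.55 for Lyz2 to -0.23 for Fcer1g. By limma 1 was called lower, a Lyz2 probe (0.0324% of all tested probes were called lower), and 3 were lower and 0 higher at an unadjusted p under 0.05 (2.76% and 2.3% of all). The 21 fibroblast marker probes had a median of 0.027, with 10 means below 0 and 11 above, and 0 were called, also at an unadjusted p under 0.05. The part of other cells in the Zbtb22 ratio was not tested.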

How the data were processed

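The deposited table holds 1 value per probe and array, which the values show to be a log2 ratio of both channels. Per the labels' protocols, cDNA made from total RNA took up Cy3 or Cy5 in a separate coupling step. The deposited log2 ratios carry no intensity or depth. Details of scanner, background correction, normalization and genome build were not given in the sources used here. Precision is limited by the number of arrays and, since the design names only 2 cultures, by the number of cultures, so intervals over arrays may be too narrow for the genotypes. The channel labels name wild-type fibroblasts as the second channel, and a protocol text that speaks of organs and control animals was not followed.

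Values above 12 in absolute size, a repeated code on each array, were set to missing, and every array was shifted to a median of 0. Probes measured on 10 or more arrays, 4 or more in either dye orientation, were fitted with limma 3.58.1 (R 4.3.3), with a mean and a dye term, and p-values were adjusted by Benjamini-Hochberg over all 18503 probes. The fit was tested on simulated data. Because the wild-type RNA was hybridised only against the knockout, its own spread was not measured. Gene symbols came from the platform annotation, updated through gene identifiers; 14030 probes had 1 symbol, 5 several and 6320 none. All 9 neighbour genes had a promoter in the RefSeq table.

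The neighbours and the gene lists were chosen with earlier results of these data known. All probes of the neighbours are named, H2-K1 as their anchor, up to 2 genes at either end of each other list, and the 5 probes most like the best measured Zbtb22 probe; Tap1 and Tapbp were named after their values were seen. Alternatives covered centring, coded values, filters, the dye term, number ranges, direction, gene averages and single arrays. Mln, on a list, matched a gene of another chromosome and was left out.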

Additional observations from a re-analysis of the deposited data

How the results depend on the processing

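By limma, 0 of the neighbour probes were called under every alternative except centring on the well measured probes, chosen after the data were seen, where 1 was called, Zbtb22 p15389. The median over the neighbour probes was 0.178 and lay at -0.23 with coded extremes kept, at -0.09 with values required on all 14 arrays (3 probes), at -0.178 with all 14 arrays turned, and between -0.101 (without replicate 11) and 0.254 with 1 array left out; the direction of this median is therefore not settled. Among single probes, with coded extremes kept the mean of Ring1 turned to -0.694 and that of Rgl2 p18248 to -1.303; Zbtb22 p12316 (-0.135 without replicate 11), Daxx (0.112 without replicate 7), Slc39a7 p2734 (-0.118 in replicates 7 to 12) and Slc39a7 p6102 (0.416 in replicates 1 to 6) also changed sign. With the Cy3 arrays turned, Wdr46 (-0.094) and Hsd17b8 p14313 (-0.023) changed sign as well. Zbtb22 p15389 stood at 0.061 with the Cy3 arrays turned and at 0.665 with all arrays turned. It lay between -0.706 and -0.578 with 1 array left out. The call count over all probes, 6, was 11 with values on all arrays, 16 with a fixed block for number ranges, 10 with number ranges as a random block or with centring on the well measured probes, 1 with the Cy3 arrays turned, 0 in replicates 1 to 6 alone and with robust and trended eBayes (685 and 604 at an unadjusted p under 0.05), and 4 to 8 with 1 array left out. The dye call, 1 probe, was 0 with values on all arrays, with number ranges and dye as a random block, with the fixed block, in either range alone and with robust and trended eBayes, and 0 to 4 with 1 array left out (4 without replicate 14). The cause of these changes was not tested. Each array holds both genotypes, so testing the log2 ratios against 0 already pairs knockout with wild type. No further pairing was made, as there is 1 group.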

Other observations

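Farther along the histocompatibility complex, the class III genes, which hold complement factors, Tnf and heat shock genes, had 46 tested probes of 35 genes. By limma 0 were called, where 0.0324% of all tested probes were. At an unadjusted p under 0.05 there was 1 higher and 0 lower (2.3% and 2.76% of all tested probes). Their median was -0.059, with 27 means below 0 and 19 above, against 0.007 over all probes. The lowest means were those of complement factor Cfb at -0.53 ± 2.05 (SD, n = 13) and of Nelfe, a subunit of a transcription pausing complex, at -0.53 ± 1.06 (SD, n = 12). The highest were Ly6g6c at 0.74 ± 1.47 (SD, n = 14) and a second Nelfe probe at 0.52 ± 1.50 (SD, n = 11), opposite in sign to the first. None of the 46 was below 0 on every array with a value.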
